A study of Mus musculus with 72 samples.

Results

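The comparison described here sets fat from LRE mice against fat from full-body Bmal1 knockout mice (KO) at zeitgeber time 20 (ZT20, 20 h after the time set as lights on). It used 8 of the 72 libraries of the series, 4 LRE and 4 KO, chosen by genotype and time in their titles. The tissue is labelled eWAT, a white fat depot, while the series text speaks of Smart-seq3 on a hepatocyte line; the sample labels were followed. The whole series also holds WT mice and 5 other times, with 4 libraries for each genotype and time. The deposited table has 32377 rows of counts and no gene identifier, so each feature goes by the number of its row, where row 1 is the first below the header. Features with at least 10 counts in at least 4 of the 8 libraries were tested, which left 1950.

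KO is labelled as a full-body Bmal1 knockout, LRE only by its abbreviation, and WT only as WT. In earlier work with mice called liver-reconstituted, Bmal1 is missing from the whole body except hepatocytes, where a Cre recombinase restores it. Whether LRE stands for that model is not given in the sources used here, nor are age, sex, promoter, lighting or the number of animals behind a library. The knockout label and the tissue label were not checked against marker genes, because no row could be tied to a gene. Nothing in the labels ties each replicate to an animal of its own, so the p-values measure the spread between these libraries, which may be technical. In bulk tissue, fewer cells of a type and less RNA per cell cannot be told apart.

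As background, Bmal1 pairs with Clock to switch on genes that carry E-box elements, among them the Per and Cry genes, whose products then repress the pair and close the daily loop. The loop runs in most tissues, fat and liver included. In fat it is known to time lipid storage and release and the secretion of adipokines, and signals from the liver and from feeding also reach the tissue. Per its title, the series is about how the clock of the liver bears on daily rhythms in white fat. A contrast of LRE with KO asks how fat of LRE mice differs from fat of the full knockout at the same time of day.

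The 8 libraries differed in how alike they were before any test. Totals were 128071, 121692, 157078 and 107456 counts in LRE replicates 1 to 4 and 56919, 87235, 121302 and 118496 in KO replicates 1 to 4. Levels are given as CPM, counts scaled to a common total over the tested features, and 1 count equalled 10.1 to 25.1 CPM. The 4 KO libraries resembled each other, with Spearman rank correlations of log2 CPM between 0.74 and 0.82 over the 6 pairs. Those within LRE ran from 0.43 to 0.83. LRE replicate 1 lay closer to KO (median 0.81) than to the other LRE libraries (median 0.50). LRE replicates 2 and 3 resembled each other (0.83) and stood apart from KO, with medians of 0.44 and 0.39. LRE replicate 4 lay between them, with a median of 0.69 to KO and 0.70 to the other LRE libraries.

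**Figure D1:**
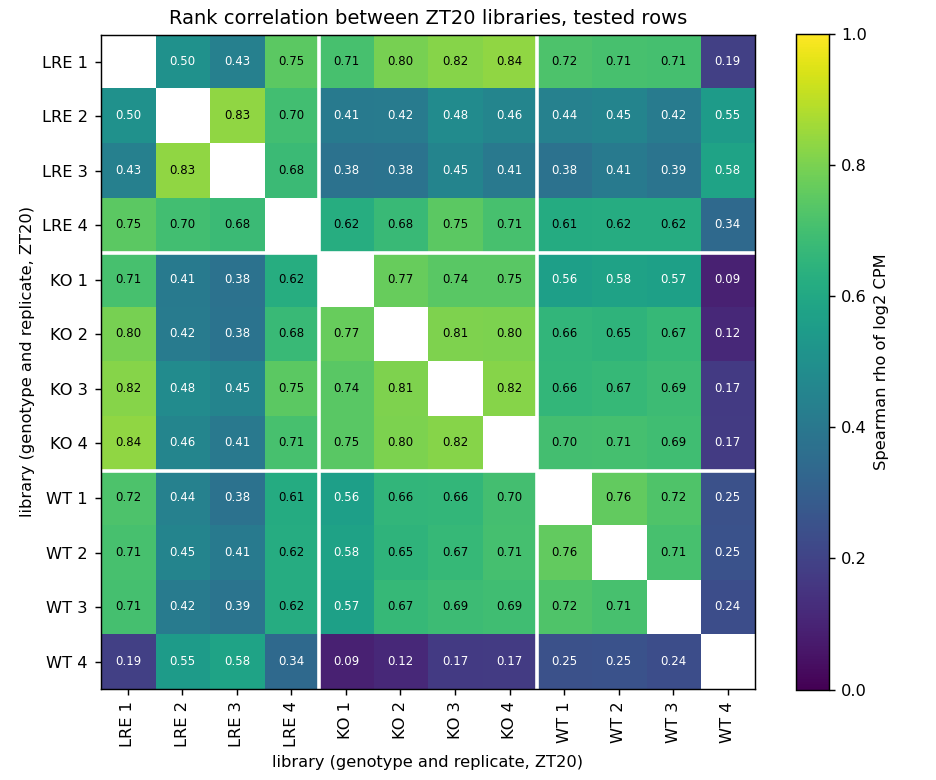
Spearman rank correlation of log2 CPM between the 12 libraries of ZT20 over the 1950 tested features; rows and columns are libraries by genotype and replicate, and white lines part the genotypes. The KO block is even (0.74 to 0.82), while LRE 1 sits with KO and LRE 2 and 3 sit apart from it.

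The spread within LRE was accordingly wider. The median SD of a feature on the log2 scale was 0.47 in LRE and 0.35 in KO, and it was larger in LRE for 1293 of 1950 features. The common biological coefficient of variation estimated by edgeR was 0.38 in LRE alone and 0.18 in KO alone. No 2 libraries within either group matched within sampling noise, since the chi-square per degree of freedom was 1.29 or more for every pair. Plate position number was 3 for all LRE libraries and 5 for all KO libraries, so genotype and plate position cannot be told apart.

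LRE and KO differed at 129 of 1950 features at ZT20, 110 of them higher in LRE and 19 lower (edgeR quasi-likelihood F-test, Benjamini-Hochberg adjusted p under 0.05, here named called). That is 6.62% of the features tested, 5.64% called higher and 0.974% called lower. The 110 higher features rose by a median log2 fold change of 1.81, or 3.50-fold, with quartiles at 1.53 and 2.11 and a range of 1.07 to 9.38. The 19 lower features fell by a median of 1.33 on the log2 scale, or 2.51-fold, with a range of -2.07 to -0.97. Every one of the 110 changed at least 2-fold, 37 at least 4-fold, 5 at least 8-fold and 3 at least 16-fold. Over all 1950 features the median log2 fold change was -0.004, with 973 positive and 977 negative values. Libraries were scaled over these same features, which pulls this median towards 0, so the balance is given as a description. The tested features held 74.3%, 59.2%, 56.3% and 69.3% of all counts in LRE replicates 1 to 4 and 73.7% to 76.4% in KO. With no filter on counts the median was 0.23. With no adjustment, 466 features had a p under 0.05, 284 higher and 182 lower in LRE.

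**Figure D2:**
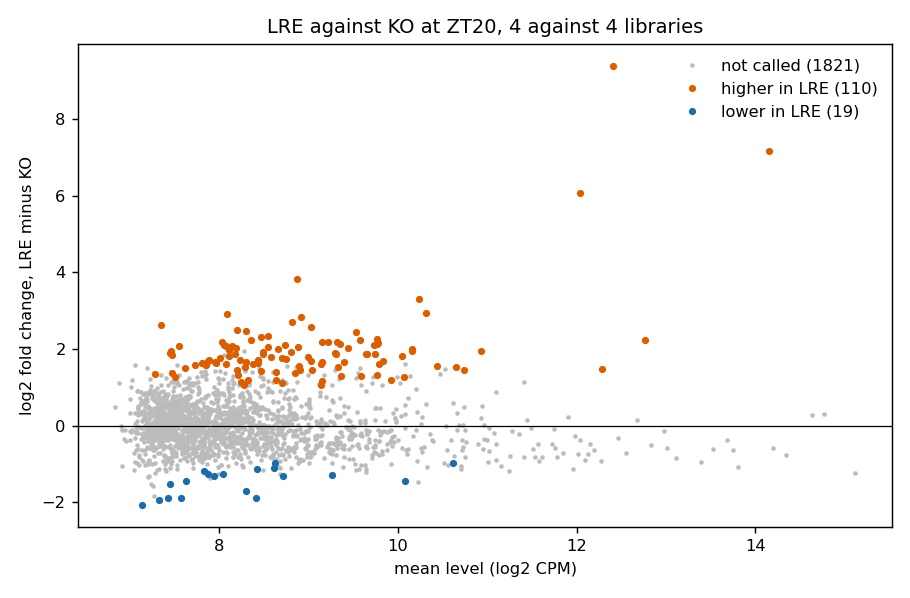
Log2 fold change of LRE minus KO at ZT20 against mean level in log2 CPM; each point is 1 of the 1950 tested features, coloured where called. The 110 features higher in LRE lie mostly between 1 and 3, with a few single points far above, and the 19 lower ones lie between -2.07 and -0.97.

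Features called higher were mostly abundant ones, by a mean level over both groups that the rise in LRE itself lifts. The 1950 features were split by mean level into 4 classes of near equal size. The highest class, from 408 CPM upwards, held 59 of the 110 higher features (12.1% of that class). The third, from 249 to 408 CPM, held 35 (7.19%), the second 9 (1.85%) and the lowest 7 (1.43%). Their median log2 fold change was similar in all 4 classes, between 1.64 and 1.87. The median standard error fell only from 0.39 in the lowest class to 0.33 in the highest. The 19 lower features were spread as 4, 5, 6 and 4 from the lowest to the highest class. The highest class as a whole had a median log2 fold change of -0.16, against 0.03 to 0.05 in the other 3.

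Among the 10 features with most counts in the 8 libraries, 1 was called, which is row 22244 described below. The other 9 had log2 fold changes from -1.23 to 0.30 and did not pass the threshold. The most abundant of them averaged 21280 CPM in LRE and 49958 CPM in KO (adjusted p = 0.0676 by edgeR).

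Separation of the 2 groups was far more even in direction than the calls. For 122 features all 4 LRE values lay above all 4 KO values (6.26% of features tested), and for 111 all 4 lay below (5.69%). Of the 122, 65 were among the 110 called higher, and of the 111, 17 were among the 19 called lower. Thus 45 of the 110 higher features and 2 of the 19 lower ones had overlapping groups. Depth also differed between the sets. The higher features held a median of 257 counts over the 8 libraries and the lower ones 145, against 139 over all features tested. Of the 110, 106 had at least 10 counts in every LRE library and 24 in every KO library. Of the 19, these numbers were 6 and 19, and over all 1950 features 1237 and 830. For 106 of the 110 and all 19, the group where they were high thus sufficed to pass the count filter.

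By the rule for naming features, the 2 with the largest fold change in each direction were taken among called features whose groups did not overlap and which had at least 10 counts in every library of the higher group. The feature in row 2039 stood at 162, 23786, 15703 and 3317 CPM in LRE replicates 1 to 4. In KO it stood at 50.3, 15.5, 10.9 and 0 CPM, which rest on 2, 1, 1 and 0 counts. LRE replicates 2, 3 and 4 were high, and LRE replicate 1, with 16 counts, lay just above KO. The log2 fold change was 9.38 ± 1.33 (SE, adjusted p = 0.00349 by edgeR), and its size depends on the 4 KO counts. The mean level was 10742 ± 10982 CPM in LRE and 19.2 ± 21.7 in KO (SD, n = 4 each).

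Row 22244 stood at 455, 45201, 77818 and 20881 CPM in LRE and at 151, 325, 306 and 199.8 CPM in KO. Again LRE replicate 1 lay close to KO, with 45 counts against at most 28 in any KO library, and the other LRE libraries were far above. Its log2 fold change was 7.17 ± 1.04 (SE, adjusted p = 0.00349 by edgeR). Together the features in rows 2039 and 22244 held 0.0476%, 3.92%, 5.22% and 1.77% of all counts in LRE replicates 1 to 4, and 0.0141% to 0.0252% in KO.

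The named features lower in LRE were far less abundant, with no on-off pattern. Row 16235 stood at 80.9, 14.5, 22.8 and 50.8 CPM in LRE and at 377, 170, 131 and 155 CPM in KO. It fell by 2.07 ± 0.50 on the log2 scale (SE, adjusted p = 0.0273 by edgeR), on 15 counts in LRE and 52 in KO. Row 18442 stood at 80.9, 28.9, 45.6 and 63.5 CPM in LRE and at 427, 186, 175 and 166 CPM in KO. It fell by 1.94 ± 0.43 (SE, adjusted p = 0.0229 by edgeR), on 19 counts in LRE and 60 in KO. In both, KO replicate 1, the shallowest of the 8 libraries, was the highest and LRE replicate 1 was the LRE library closest to KO.

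**Figure D3:**
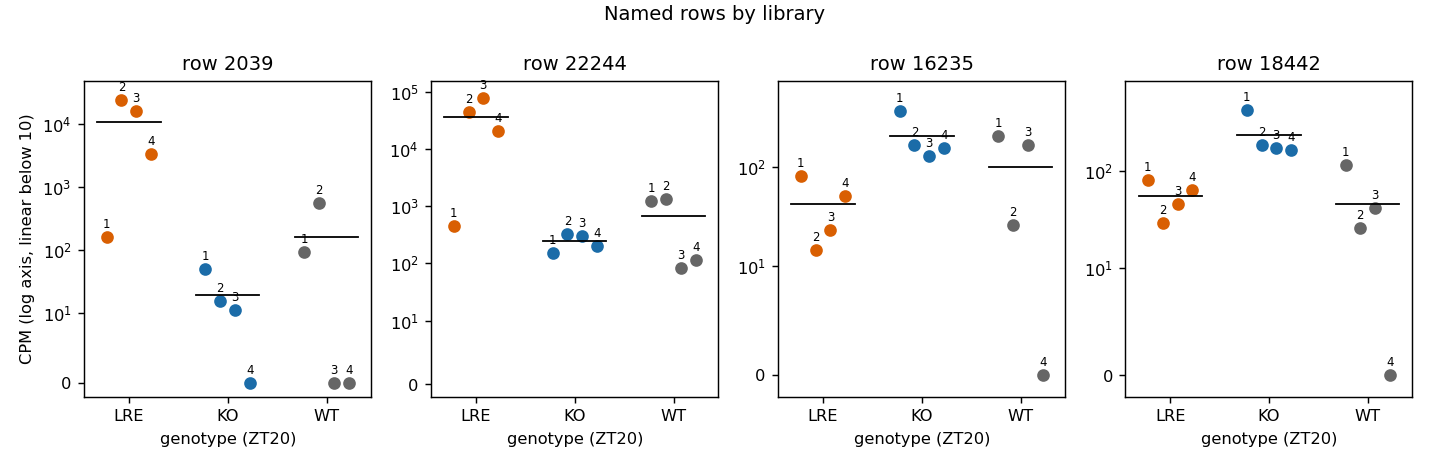
Level in CPM (log axis, linear below 10) of the 4 named features in each library of ZT20, by genotype; points carry the replicate number and bars are group means. Rows 2039 and 22244 are high in LRE 2, 3 and 4 and near KO in LRE 1, and rows 16235 and 18442 are lower in every LRE library than in every KO library.

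The 110 higher features shared 1 order within LRE. In 98 of them replicates 2 and 3 were above replicate 4, and replicate 4 above replicate 1, an order seen in 433 of all 1950 features. Replicate 1 was the lowest LRE library in 104. Relative to the KO mean, the median over the 110 was 0.47 on the log2 scale in LRE replicate 1, 2.16 in replicate 2, 2.19 in replicate 3 and 1.22 in replicate 4, while the 4 KO libraries lay between -0.15 and 0.21. The number of the 110 above every KO library was 62 in LRE replicate 1, 110 in replicates 2 and 3, and 109 in replicate 4. Over all 1950 features the shares above every KO library were 19.1%, 31.8%, 33.6% and 23.5% in replicates 1 to 4. These values come from the contrast that chose the features and are given as a description. The distance from KO was widest in replicates 2 and 3, intermediate in replicate 4 and smallest in replicate 1.

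Over the 19 lower features the 4 LRE libraries were more alike. Their medians were -0.92, -1.57, -1.61 and -1.14 relative to the KO mean, and 18 or 19 of the 19 lay below every KO library in each of them, against 20.3%, 36.7%, 34.9% and 27.1% of all features in replicates 1 to 4. KO itself was graded here, from 0.40 in replicate 1 to -0.32 in replicate 4. As a share of all counts, the 110 higher features held 3.0%, 13.5%, 14.0% and 7.15% in LRE replicates 1 to 4 and 1.75% to 2.45% in KO. The 19 lower features held 0.418%, 0.198%, 0.178% and 0.299% in LRE and 0.589% to 0.917% in KO.

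**Figure D4:**
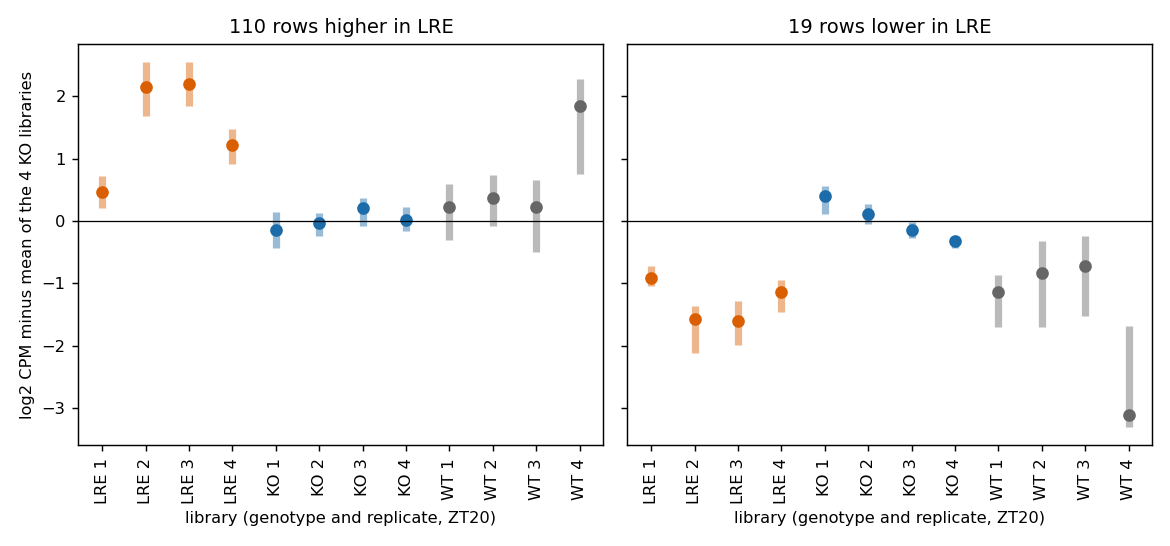
Log2 CPM of each library minus the mean of the 4 KO libraries, over the 110 features called higher in LRE (left) and the 19 called lower (right); dots are medians over features and bars run between the quartiles. LRE 2 and 3 reach 2.16 and 2.19 on the left and LRE 1 only 0.47, and there WT 4 (1.84) lies near the high LRE libraries and WT 1 to 3 near KO. The scaling is over tested features, which hold 22.3% of all counts in WT 4. As a share of all counts, the 110 hold 2.61% in WT 4, against 13.5% and 14.0% in LRE 2 and 3. On the right WT 1 to 3 lie between -1.14 and -0.72 and WT 4 (-3.12) lies below all others.

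The number of calls turned on single libraries. Without LRE replicate 1, 498 features were called, 283 higher and 215 lower. Without LRE replicate 2, LRE replicate 3 or KO replicate 2 it was 4 in each fit, all higher, and the same 4 features. They also passed without LRE replicates 2 and 3 together, an alternative chosen after seeing the data. These 4 include rows 2039 and 22244. The other two, singled out after their values were seen, rose by 2.90 ± 0.46 and 6.07 ± 0.96 (SE, adjusted p = 0.00493 for each by edgeR). Without KO replicate 1 edgeR called 0 features, with 357 at an unadjusted p under 0.05, and the adjusted p of rows 2039 and 22244 was 0.0726. Without KO replicate 4 it called 8, without KO replicate 3 it called 42, and without LRE replicate 4 it called 124. The calls of rows 16235 and 18442 were lost without LRE replicate 2 or 3 or KO replicate 1, 2 or 4, with adjusted p between 0.0714 and 0.106. limma-voom called 0 features (451 at an unadjusted p under 0.05), with adjusted p of 0.0885 for rows 2039 and 22244, while DESeq2 called 182 (142 higher and 40 lower).

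A library measure, computed from the tested features with the called ones included, moved with the difference. In the other 64 libraries, the main axis along which libraries of 1 genotype and time differed from each other was found as the first principal component of group-centred log2 CPM. Each of the 8 libraries was then given a score on it, in SD units of those 64. LRE replicates 1 to 4 scored -0.87, 1.03, 1.27 and -0.14, and KO replicates 1 to 4 scored -0.93, -0.94, -0.81 and -0.95. The means were 0.32 ± 1.00 in LRE and -0.91 ± 0.07 in KO (SD, n = 4), a difference of 1.23 (exact two-sided permutation test, p = 0.0571, adjusted over 4 measures 0.114). LRE replicates 2, 3 and 4 lay above KO on this axis and LRE replicate 1 lay within the KO range.

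All 110 higher features had a positive weight on this axis and all 19 lower features a negative one, where 956 of the 1950 features tested were positive. The weights were estimated without any of the 8 libraries compared. The score of each library, however, includes its own values of the called features, so score and calls are not separate measures. The median weight of the 110 lay at percentile 95.8 of all features and that of the 19 at percentile 16.5. With the score as a covariate in the fit of 8 libraries, edgeR called 2 features, rows 2039 and 22244 (141 at an unadjusted p under 0.05). Their log2 fold changes were then 4.84 and 3.37, and those of rows 16235 and 18442 were -1.12 and -1.36 (adjusted p = 0.669 and 0.572 by edgeR). What part the axis has in the genotype difference was not tested.

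Among the other library measures, the share of the largest features parted the groups and the rest overlapped. The 10 largest features of each library held 14.8%, 13.4%, 13.8% and 12.4% of its counts in LRE and 19.1%, 16.5%, 15.8% and 15.2% in KO. All LRE values were thus below all KO values (exact two-sided permutation p = 0.0286, the smallest that 70 splits allow, adjusted 0.114). At a common 56919 counts, 8392 to 9245 features were detected in LRE and 7918 to 8446 in KO (exact permutation p = 0.114, adjusted 0.143). Totals also overlapped between the groups (exact permutation p = 0.143, adjusted 0.143). With counts thinned to that common total, 114 features were called, 86 of them among the 110 higher and 10 among the 19 lower.

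WT libraries of ZT20 were set beside both genotypes in 1 fit of 12 libraries, with the same WT libraries in both comparisons. Plate position number was 2 for all these WT libraries, so here too genotype and plate position cannot be told apart. LRE and WT differed at 4 of 1950 features (0.205%), 2 higher and 2 lower in LRE (0.103% each). KO and WT also differed at 4 (0.205%), 3 higher (0.154%) and 1 lower (0.0513%) in KO. Unadjusted, 300 features had a p under 0.05 for LRE and 381 for KO. Over the 110 features higher in LRE than KO, the median log2 fold change was 0.85 for LRE minus WT, with 104 positive, and -0.93 for KO minus WT, with 6 positive. A single one of the 110 was called for LRE against WT and none for KO against WT. Over the 19 lower features, the medians were 0.02 for LRE minus WT and 1.24 for KO minus WT. Both sets were chosen by LRE against KO in these same LRE and KO libraries. For the 110 this favours positive values of LRE minus WT and negative values of KO minus WT, and for the 19 the reverse. In the same fit of 12 libraries LRE and KO differed at only 4 features.

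Within WT, replicate 4 stood apart, with its 10 largest features holding 54.01% of counts and rank correlations of 0.24 to 0.25 with the other WT libraries. Its correlations with LRE replicates 2 and 3 were 0.55 and 0.58, and its axis score was 2.42, against -0.82 to -0.74 in WT replicates 1 to 3. Over the 110 higher features it lay 1.84 above the KO mean on the log2 scale, and WT replicates 1 to 3 lay 0.22 to 0.37 above it. These values are scaled over the tested features alone. Those held 22.3% of all counts in WT replicate 4 and 66.4% to 69.7% in WT replicates 1 to 3, which raises the CPM of replicate 4. As a share of all counts, the 110 held 2.61% in WT replicate 4 and 2.29% to 2.75% in WT replicates 1 to 3. Without WT replicate 4, LRE and WT differed at 193 features. KO and WT then differed at 17 features in the fit that keeps LRE, and at 185 in a fit of KO and WT alone, an alternative chosen after seeing the data. In that last fit 102 features were lower in KO than WT (5.23%) and 83 higher (4.26%). It called 9 of the 110 lower and 1 higher, and 8 of the 19 higher. The median of the 110 for KO minus WT was then -0.19, with 40 positive, in place of the -0.93 given with WT replicate 4, and that of the 19 was 0.88. The KO libraries in this fit are those that chose the features.

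Row by row, WT replicates 1 to 4 held 91.5, 542, 0 and 0 CPM of row 2039 and 1236, 1317, 83.6 and 113 CPM of row 22244. These values lay between those of KO and of the 3 high LRE libraries, or were within or below the KO range. Row 16235 stood at 206, 25.8, 167 and 0 CPM in WT and overlapped both genotypes. Row 18442 stood at 114, 25.8, 41.8 and 0 CPM in WT, below every KO library and overlapping LRE. None of these 4 passed the threshold against WT in either genotype, the lowest adjusted p being 0.0523 for rows 2039 and 22244 in LRE against WT.

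At the other times LRE and KO were compared in libraries that had no part in the calls of ZT20. No feature was called at ZT0 (66 of 1293 at an unadjusted p under 0.05), ZT4 (36 of 1745) or ZT16 (14 of 1126), and limma-voom also called 0 at each of these times. At ZT16, KO replicate 1 held only 5293 counts, against 73903 to 113719 in the other KO libraries of that time. This shallow library enters all values for KO at ZT16, the mean of the other times and the axis. What leaving it out would change was not tested. At ZT8, 45 of 1673 features were higher in LRE (2.69%) and 208 lower (12.4%). At ZT12, 41 of 1149 were higher (3.57%) and 58 lower (5.05%).

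Many features called at ZT20 were called in the opposite direction at ZT8 and ZT12. Of the 110 higher at ZT20, 95 were tested at ZT8, where 61 were called lower in LRE and 0 higher. Among all features tested at both times, 9.83% were called lower at ZT8 and 2.99% higher. At ZT12, 68 of the 110 were tested, and 31 were called lower and 0 higher. Among all 1120 features tested at both ZT20 and ZT12, 52 were called lower at ZT12 and 41 higher. In a fit of all 48 LRE and KO libraries, the median log2 fold change of the 110 was -1.26 at ZT8, with 109 negative, and -1.42 at ZT12, with 105 negative. It was 0.66 at ZT0 with 107 positive, 0.08 at ZT4 with 64 positive and 0.20 at ZT16 with 76 positive. Over all 1950 features these medians lay between -0.005 and 0.07.

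The 19 lower features had medians of the opposite sign at ZT8 (0.74) and ZT12 (0.28). At ZT12, 2 of the 14 tested were called higher, against 41 of all 1120 features tested at both times. At ZT8 0 of 12 were, against 2.99% of all features tested at both times. At ZT0, ZT4 and ZT16 their medians were -0.61, -0.41 and -0.72, the same sign as at ZT20, with no feature called.

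**Figure D5:**
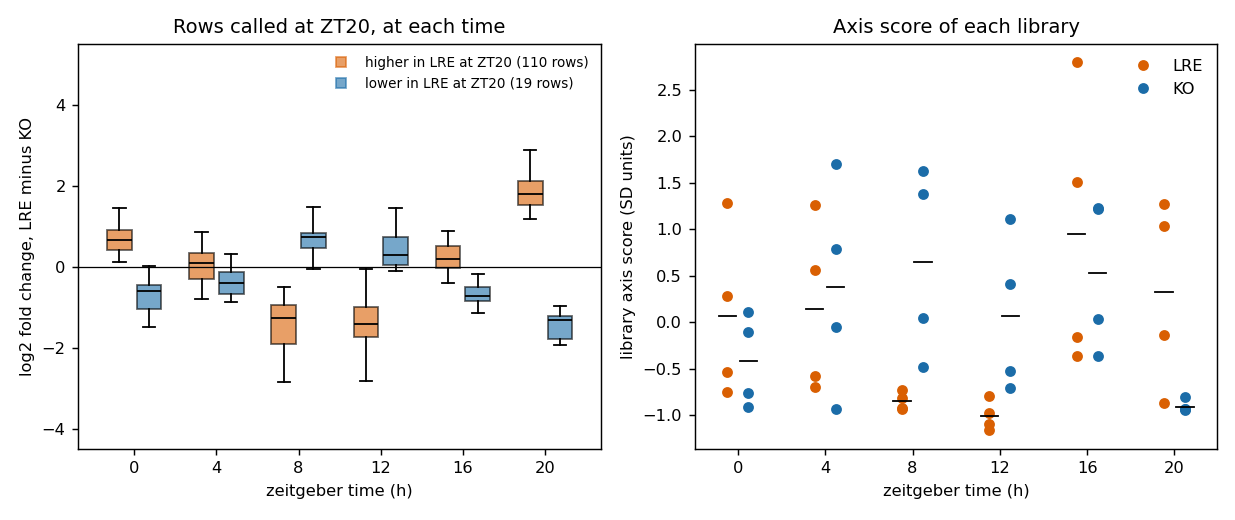
Left, log2 fold change of LRE minus KO at each zeitgeber time for the features called at ZT20 (boxes are quartiles with the median, whiskers the 5th and 95th percentiles); right, axis score of each LRE and KO library, with bars for group means. The 110 features higher at ZT20 have negative medians at ZT8 (-1.26) and ZT12 (-1.42), the times at which all LRE libraries have low scores.

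A test of the difference itself found that LRE minus KO at ZT20 differed from LRE minus KO at ZT8 for 424 of 1950 features, or 21.7%. It was larger at ZT20 for 276 (14.2%) and smaller for 148 (7.59%) (edgeR interaction contrast, adjusted p under 0.05). Of the 110 higher features 108 were among the 276, and of the 19 lower ones 15 were among the 148. Both shares use the ZT20 libraries that chose the features. Plate position number was 4 for KO at ZT8 and 5 for KO at ZT20, and 3 for LRE at both times. In KO, time and plate position thus cannot be told apart in this contrast. Without LRE replicates 2 and 3 of ZT20 the count was 22, an alternative chosen after seeing the data, and without either alone it was 279 or 246. Against the mean of the other 5 times, LRE minus KO at ZT20 differed for 145 features (7.44%), larger for 131 (6.72%) and smaller for 14 (0.718%). These held 88 of the 110 and 5 of the 19. Plate position number also varied over the other 5 times in both genotypes. Without LRE replicate 2 or 3 this count was 53 or 54, without KO replicate 1 or 2 it was 74 or 88, and without LRE replicate 1 it was 269.

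The axis score moved the same way as these differences at 5 of the 6 times. The score is a weighted sum over the tested features, with the 110 included at positive weights, so this match is in part built in. ZT20, 1 of the 5 times, also chose the features. LRE minus KO on the axis was negative at ZT4 (-0.24), ZT8 (-1.49) and ZT12 (-1.08), and was positive at ZT0 (0.48), ZT16 (0.42) and ZT20 (1.23). The exception was ZT4, where the median of the 110 was near 0. At ZT8 all 4 LRE libraries scored low (-0.85 ± 0.10, SD, n = 4) and KO varied (0.64 ± 1.02). At ZT12 LRE scored -1.01 ± 0.16 and KO 0.07 ± 0.85. At ZT20 the roles were exchanged, with KO low and even and LRE varied. Among the LRE and KO groups, those at ZT8 and ZT12 in LRE and at ZT20 in KO had the smallest SDs (0.0663 to 0.161). The WT groups at ZT4 (-0.61 ± 0.165) and ZT8 (-0.64 ± 0.138) were about as even.

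The levels of the named features at the other times are given here as CPM scaled over all 72 libraries. The feature in row 2039 averaged 18.3 ± 21.1 CPM in LRE and 6877 ± 6655 in KO at ZT8 (SD, n = 4). At ZT12 the means were 20.4 ± 40.8 in LRE and 1485 ± 1840 in KO. In LRE at ZT16 it averaged 3437 ± 3129 CPM, and in KO 2655 ± 3777. Its mean was lower in LRE than KO at ZT0, with 2350 ± 4557 in LRE and 4143 ± 5451 in KO, and at ZT4, with 1818 ± 2873 and 5974 ± 4152, although the 110 features had positive medians at these times. The 2 genotypes overlapped at ZT0, ZT4 and ZT16. Its difference at ZT20 exceeded that at ZT8 (adjusted p = 0.000125 by edgeR) and the mean of the other times (adjusted p = 0.00174). Both tests reuse the ZT20 libraries that chose the feature, which passed the count filter through LRE alone, so they are given as a description. Among the 64 libraries outside this comparison the feature in row 2039 had counts in 47 and was over 1000 CPM in 20.

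Row 22244 averaged 153 ± 260 CPM in LRE and 48643 ± 33773 in KO at ZT8 (SD, n = 4), and 80.7 ± 83.8 in LRE and 35508 ± 42623 in KO at ZT12. At ZT16 both genotypes were high, 73326 ± 61190 CPM in LRE and 42959 ± 35016 in KO. It stood at 18225 ± 36340 in LRE and 6742 ± 11975 in KO at ZT0, and at 21947 ± 41993 and 47751 ± 43359 at ZT4, with overlapping groups at all 3 times. In WT it averaged 2.79 to 26.0 CPM at ZT0, ZT4, ZT8 and ZT12 and 12753 ± 22914 at ZT16. It was over 1000 CPM in 30 of the 64 other libraries, and 19 of these also had row 2039 over 1000 CPM. KO at ZT20 was the only KO group in which no library passed 1000 CPM of row 22244. Its difference at ZT20 exceeded that at ZT8 with an adjusted p of 0.000648 (edgeR), again in a test that reuses the ZT20 libraries that chose it.

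The lower features differed from each other. The feature in row 16235 reached 210 ± 112 CPM in KO at ZT20 (SD, n = 4), while every other LRE, KO or WT group averaged 24.4 to 99.6 CPM. The difference of LRE and KO for it was lower at ZT20 than at ZT8 (adjusted p = 0.0497 by edgeR) but not past the threshold against the mean of the other times (0.0568). The feature in row 18442 was high in KO at ZT0 (319 ± 126 CPM) and ZT20 (241 ± 124), against 54.9 ± 43.6 at ZT12. In LRE it was highest at ZT12 (189 ± 130) and ZT8 (140 ± 61). In WT it averaged 18.7 to 54.0 CPM at all 6 times. Its LRE minus KO difference was lower at ZT20 than at ZT8 (adjusted p = 0.00814 by edgeR) and than the mean of the other times (0.0294). Rows 16235 and 18442 both passed the count filter through KO at ZT20 alone, and were chosen by their fall in LRE there. This selection favours a high KO level at ZT20 and a lower difference at that time. The tests for these rows reuse the same libraries, so levels and tests are given as a description.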

How the data were processed

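Counts of 72 mouse fat libraries were deposited as 1 table of whole-number counts. STAR 2.5.4b and the builds mm10 and GRCm38 are named, per the submitters' processing notes. Per the file headers, the authors' counts come from sorted, deduplicated alignments. No source used here gives the counter, annotation or use of strand. Columns were tied to samples by plate position, and 108 of 180 columns match no sample here and were not used. Rows that hold no gene could not be told from genes.

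Counts were fitted with edgeR 4.0.16 (R 4.3.3) by quasi-likelihood and TMM scaling, with library sizes summed over tested rows, Benjamini-Hochberg adjustment over all of them and a threshold of 0.05. CPM are counts on tested rows scaled to a common total, and log2 CPM use a prior count of 2. The standard error is the log2 fold change over the square root of F. The comparison at ZT20 was fitted on 8 libraries with 6 residual degrees of freedom. Limma 3.58.1 and DESeq2 1.42.0 served as alternatives, beside other scalings, filters, thinning, a replicate block, the axis score and leaving out libraries. Scripts were tested on simulated data. Totals of 56919 to 157078 counts limit the precision for features of few counts. The members and tests were chosen with earlier results of these data known.

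Named features are, in each direction, the 2 with the largest absolute log2 fold change among called rows whose groups do not overlap, with at least 10 counts in every library of the higher group.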

Additional observations from a re-analysis of the deposited data

Results flagged for a closer look

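The difference between LRE and KO was not the same at all times by tests of the difference itself. It differed between ZT20 and ZT8 for 424 features and between ZT20 and the mean of the other times for 145. A library stood far from the rest of its group in 2 of 8 sets (4 library measures in LRE and in KO) and in 3 of 12 sets of levels of the 4 named features in LRE, KO and WT. Chance gives about 1 in 20 by the nominal rate of the rule. These sets share libraries, and the named features were chosen by their values in LRE and KO, so an excess cannot be judged. KO replicate 1 had 7918 features detected at the common total, which is its whole library. KO replicate 3 scored -0.81 on the axis, above the other KO libraries by a small margin in a tight group. In KO replicate 1 the feature in row 16235 stood at 377 CPM (15 counts) and that in row 18442 at 427 CPM (17 counts). In WT replicate 2 of ZT20 the feature in row 2039 stood at 542 CPM (21 counts).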

How the results depend on the processing

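For LRE against KO at ZT20, 129 features were called, and the count was 578 with no filter on counts (534 higher, 44 lower, 16200 features tested), 0 with limma-voom, 230 with limma-voom and quality weights (163 and 67), 4 in the fit of 12 libraries, 2 with the axis score and 4 without LRE replicates 2 and 3. Leaving out 1 library gave 0 to 498. With RLE scaling it was 127, with upper-quartile scaling 95 (77 and 18), with totals alone 131 (118 and 13), with filterByExpr 136, with DESeq2 182, with robust edgeR 126, in the fit of 72 libraries 88 and on thinned counts 114. With the replicate number as a block it was 225 (165 and 60). The numbers were not taken to pair libraries, since the correlations of same-numbered deviations were 0.02, -0.05, 0.11 and 0.01, and not every library correlated best with its own number. With the block, LRE against WT gave 0 calls (233 at an unadjusted p under 0.05 by edgeR) and KO against WT 2, and the interaction counts were 378 and 140.

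The interaction of ZT20 with ZT8 gave 414 to 458 calls with other scalings and limma-voom, 548 in the 16 libraries of these times, 22 without LRE replicates 2 and 3 and 246 to 612 leaving out 1 library. RLE scaling moved its median over all features from -0.05 to -0.17, and the split of calls from 276 and 148 to 248 and 175. Against the other times the count was 91 with limma-voom and 53 to 269 leaving out 1 library. LRE against WT gave 14 with RLE scaling, 1 with limma-voom, 58 without WT replicate 4 and LRE replicates 2 and 3, and 0 to 193 leaving out 1 library. KO against WT gave 0 with limma-voom (384 at an unadjusted p under 0.05), 185 for KO and WT alone without WT replicate 4, and 0 to 17 leaving out 1 library. The causes were not tested. Rows 2039 and 22244 passed under 21 of 23 alternatives and rows 16235 and 18442 under 12 of 23, with the sign kept in each. Their log2 fold changes ranged from 4.84 to 10.1, 3.37 to 7.58, -2.60 to -1.12 and -2.18 to -1.36.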
